A study of Lachancea kluyveri with 31 samples.

Results

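Chromosome A is one of the 8 nuclear chromosomes of Lachancea kluyveri, a budding yeast related to Saccharomyces cerevisiae. Its genes carry systematic names that begin with SAKL0A and are numbered in order along the chromosome. Of the 447 chromosome A genes with probes on the array, 5 were set aside by the rule used here, among them AFT1 itself, and the other 442 are described. They were measured with 884 probes, out of 5316 genes and 10620 probes in all, and 4869 genes lay on chromosomes B to H. For 200 of the 442 members an S. cerevisiae gene name was found in the annotation tables read here, and these names and the functions given with them come from S. cerevisiae. The other members keep their systematic names.

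RNA from wild-type (WT) cells and from 3 deletion mutants was hybridized in 1 color to a custom Agilent array, with 1 array for each biological replicate. WT was JYL1897, a MATa ura3 strain. The sef1Δ mutant was made from it by replacing SEF1, and the aft1Δ mutant by replacing AFT1, each with KanMX6. The sef1Δaft1Δ mutant was made from the sef1Δ mutant with HphMX4 and not from the aft1Δ mutant, and each mutant was 1 clone. All groups were grown overnight in YPD at 28°C, set to 0.5 OD600/ml and kept at 30°C for 5.5 h, either with ferrous iron added (high iron) or with BPS, a chelator of ferrous iron (low iron). The doses are 400 for iron and 200 for BPS, in mM in the sample labels and in µM in the study's methods, and no value here depends on that unit. Each of the 8 groups had 4 arrays except high-iron sef1Δ with 3, and 31 arrays were used.

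Aft1 is a transcription factor that in S. cerevisiae turns on iron uptake genes when iron is scarce, and Sef1 is a zinc cluster transcription factor that in Candida albicans controls iron uptake. A gene's transcript level depends, among other things, on how strongly its promoter is read and on how many copies of the gene a cell holds. Neighbors on a chromosome usually differ in level and in their response to a treatment. Genes of one chromosome that shift together are described below by function, by signal and by place. DNA copy number was not measured on these arrays, and no genome sequence was used, so that place means the order of the systematic names.

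The value of a gene on an array is the log2 of its background-subtracted spot intensity minus the log2 of that array's 75th percentile. The 75th percentile ranged from 10424 to 23244 intensity units over the 31 arrays, 97.8% to 99.7% of probes were well above background, no spot was saturated, and 0 to 370 probes per array were left out as non-uniform. Each strain lay on its own slide, and the 3 mutant slides were scanned in a different session from the WT slide, so that strain and slide cannot be told apart in any comparison of strains, nor can scan session in those with WT. Comparisons between mutants use no WT array and stay within 1 scan session, iron comparisons stay within a slide, and offsets of a slide cancel in the strain by iron interactions. SEF1, on chromosome F, had signals of -7.62 to -6.20 in the strains that lack it and -2.19 to -1.93 in the others. AFT1 had signals of -5.24 to -4.25 in aft1Δ over both iron levels. At high iron it had -3.53 to -2.96 in sef1Δaft1Δ and -2.78 to -2.10 in WT and sef1Δ, and at low iron -3.86 to -3.03 and -1.12 to -0.56. It was thus lowest in both strains that lack it, but it was well above background on all 8 sef1Δaft1Δ arrays, above every aft1Δ array there, and at high iron close below sef1Δ.

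Chromosome A stood above the other chromosomes on every aft1Δ array and on no other array. The median signal of the members minus the median signal of the genes of chromosomes B to H was 0.84 ± 0.018 (SD, n = 4) in high-iron aft1Δ cells and 0.92 ± 0.022 (SD, n = 4) in low-iron aft1Δ cells. It was -0.02 ± 0.024 (SD, n = 4) and -0.09 ± 0.018 (SD, n = 4) in WT, -0.03 ± 0.020 (SD, n = 3) and -0.06 ± 0.0086 (SD, n = 4) in sef1Δ, and -0.01 ± 0.0043 (SD, n = 4) and -0.09 ± 0.012 (SD, n = 4) in sef1Δaft1Δ, each at high and then low iron. The 8 aft1Δ arrays lay between 0.81 and 0.95, and the other 23 arrays between -0.11 and 0.00, with no overlap. The sef1Δaft1Δ mutant, which also lacks AFT1, thus lay with WT and sef1Δ. Each array gives a mean over all cells of a culture, so that a change in every cell and a larger change in part of the cells cannot be told apart.

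**Figure D1:**
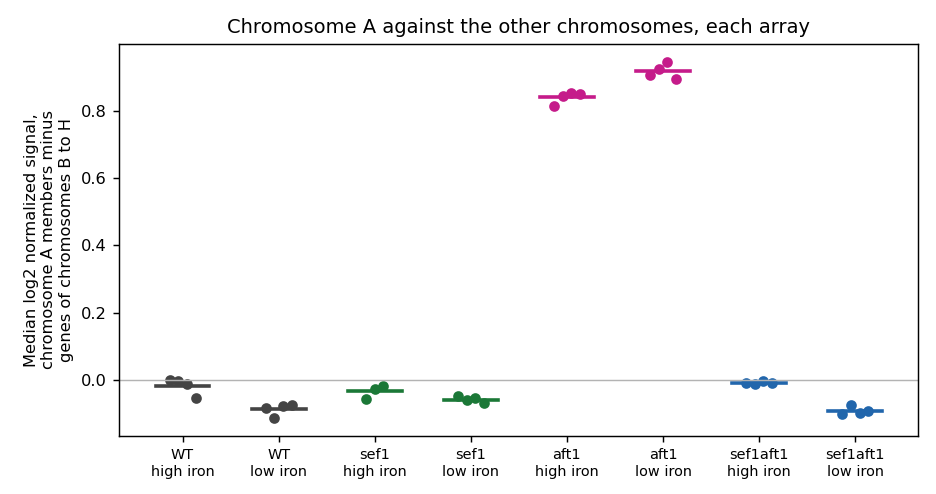
Median log2 normalized signal of the 442 chromosome A members minus the median of the genes of chromosomes B to H (y axis), for each of the 31 arrays grouped by strain and iron level (x axis). Points are arrays and lines are group means, and the 8 aft1Δ points sit between 0.81 and 0.95 while all other points sit between -0.11 and 0.00.

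The rise in aft1Δ was seen against each of the 3 other strains. Against WT, the median member differed by 0.80 at high iron and 0.87 at low iron, and the median gene of the other chromosomes by -0.09 and -0.08. The members thus stood 0.89 (1.85-fold) and 0.94 (1.92-fold) above the rest of the genome. Taken singly, chromosomes B to H had medians from -0.23 to -0.03 at high iron and from -0.27 to -0.005 at low iron in this comparison. Against sef1Δ, with no WT array, the members stood 0.89 and 0.88 above the rest, and against sef1Δaft1Δ they stood 0.88 and 0.91 above it. These comparisons share the aft1Δ arrays and are not repeats of each other. For sef1Δ against WT the medians of the members and of the rest were both -0.00 at high iron, and the members stood 0.04 above the rest at low iron. For sef1Δaft1Δ against WT they stood 0.03 above it at both.

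The spread over members was wider in the comparison with WT than in that with sef1Δ. The interquartile range of the members was 0.82 at high iron and 0.91 at low iron against WT, and 0.49 and 0.57 against sef1Δ. The genes of the other chromosomes had interquartile ranges of 0.68 and 0.86 against WT and of 0.45 and 0.59 against sef1Δ, the last of these wider than that of the members. In aft1Δ against WT, 59.4% of members at high iron and 53.2% at low iron lay within 0.5 of their own median, and in aft1Δ against sef1Δ at low iron 71.5% did.

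**Figure D2:**
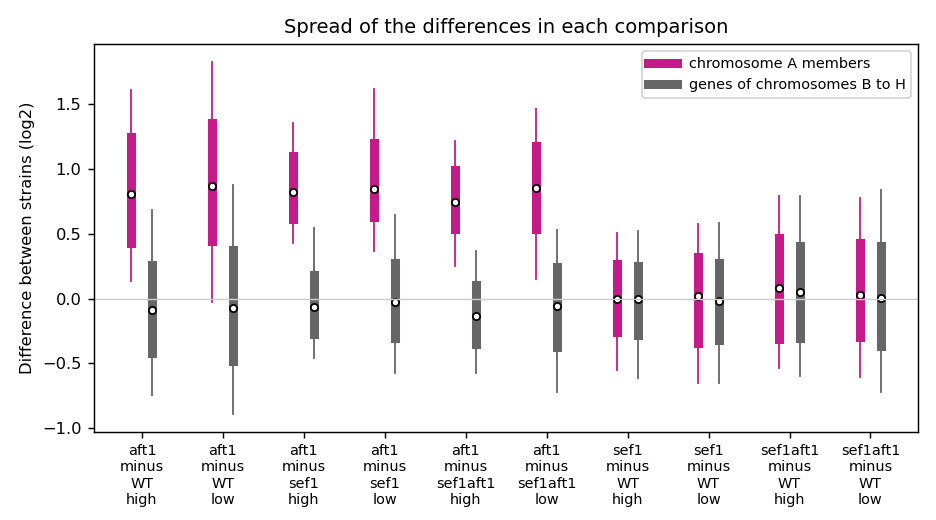
Difference between strains on the log2 scale (y axis) for 10 comparisons (x axis), for chromosome A members and for genes of chromosomes B to H. White points are medians, thick bars span the quartiles and thin bars the 10th to 90th percentiles, and only the 6 comparisons with aft1Δ lift the members, by 0.88 to 0.94 over the other genes.

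Most members were called higher in aft1Δ, and few were called lower. A member was called where limma's test over all 31 arrays gave an adjusted p (Benjamini-Hochberg, over all genes) no higher than 0.05 and the fold change reached 1.5. At high iron 290 of 441 members tested (65.8%) were higher in aft1Δ than in WT, where 17.0% of all genes tested were, and 5 were lower, where 14.5% of all genes were. At low iron 302 of 442 (68.3%) were higher, beside 21.7% of all genes, and 12 were lower, beside 18.8%. Against sef1Δ 343 members were higher at high iron (14.6% of all genes) and 349 at low iron (17.2%), and 0 (4.10%) and 1 (8.92%) were lower. In that comparison no member was lower at high iron and SAKL0A02684g alone was lower at low iron. Against sef1Δaft1Δ 302 members were higher at high iron (9.57%) and 318 at low iron (13.4%), and 3 (8.54%) and 7 (13.3%) were lower. The single untested value belonged to SAKL0A10054g, which had no usable spot in WT at high iron.

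A member is said here to follow the rise where it was higher in aft1Δ than in WT at both iron levels, to follow in part where it was higher at 1 level, and not to follow where it was higher at neither. By that rule 264 members (59.7%) followed, beside 15.2% of all genes tested at both iron levels and 11.2% of the genes of the other chromosomes, 64 followed in part, and 114 did not follow. Against sef1Δ 307 members (69.5%) were higher at both iron levels, beside 11.4% of all genes, and against sef1Δaft1Δ 254 (57.5%), beside 7.11%. The mean of the 2 differences from WT, which stands for a member from here on, had a median of 1.19 (0.62 to 3.48) in the members that followed, 0.58 (0.13 to 0.98) in those that followed in part, and 0.16 (-2.02 to 0.56) in those that did not follow. Differences at high and low iron, which come from separate arrays, had a Pearson correlation of 0.89 across the 441 members with both, given as a description because genes are not independent replicates. In 385 members the difference was above 0 at both iron levels, and in 24 it was below 0 at both. The classes rest on the fold threshold as well as on the test. Of the 114 that did not follow, 58 passed the test upward at 1 or both iron levels but stayed under 1.5-fold there. The difference was above 0 at both levels in 59 of the 114 and below 0 at both in 24. In 22 of them all aft1Δ arrays lay above all WT arrays at both levels. Of the 64 that followed in part, 50 also passed the test upward under 1.5-fold.

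The second probe of each gene, of lower mean signal, gave a higher count. On it 342 members were higher at both iron levels. Of the other chromosomes' genes, 30.4%, 28.9%, 21.2%, 15.1% and 8.29% were so on that probe, over 5 signal bins from dimmest to brightest. In the comparison with WT the other probes were also higher as a whole, with medians of 1.14 and 1.18 in the members and 0.18 in the other genes at both iron levels, so that the members stood 0.96 and 1.00 above the rest. For 296 of 441 members (67.1%) the 2 probes agreed within 0.5 on the mean difference, and the median gap between them was 0.32. Of the 264 members that followed, 250 were higher at both iron levels on the other probe too. Of the 114 that did not follow, the other probe was higher at both iron levels in 52, at 1 level in 18 and at neither in 44. These 44 members were called higher at no iron level on either probe, and their median signal of 1.07 lay above the -0.71 of all members. On the main probe 19 of them still passed the test upward at 1 or both iron levels, under 1.5-fold.

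The members that rose most came from several functions, with ribosome assembly genes among them. SAKL0A03630g, which has no S. cerevisiae name in the tables, had the highest mean difference, 3.48 (other probe 3.54). Its signals were -0.53, -0.13, 0.48 and -0.32 in WT at high iron and 3.19, 3.28, 3.17 and 3.16 in aft1Δ. The groups did not overlap, and the fold change was 10.0 (log2 3.33 ± 0.19 SE, limma with Benjamini-Hochberg adjusted p = 4.43e-15). At low iron its signals were -0.07, -0.27, -0.18 and -0.13 in WT and 3.39, 3.93, 3.26 and 3.31 in aft1Δ, 12.4-fold higher. It was also higher against sef1Δ at high iron, by 2.26, and in sef1Δ against WT, by 1.06 (adjusted p = 9.16e-05).

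ENP1 (SAKL0A05808g), which acts in the maturation of the small ribosomal subunit, had a mean difference of 3.12. Its signals at high iron were -3.49, -3.52, -3.30 and -3.40 in WT and -0.52, -0.41, -0.50 and -0.54 in aft1Δ, without overlap and 7.64-fold apart (log2 2.93 ± 0.12 SE, adjusted p = 2.11e-17). Against sef1Δ it was 2.15 higher. SPO23 (SAKL0A05632g), a gene linked to meiosis in S. cerevisiae, had a mean difference of 3.45, with 2.70 at high iron and 4.21 at low iron. The other members among the 8 with the highest mean difference were SAKL0A03036g (3.03), ESF2 (2.92), a factor for 18S rRNA processing, SAKL0A07612g (2.62), BUD31 (2.61), a splicing factor, and SAKL0A00616g (2.58). All of them followed on both probes.

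The 8 members with the lowest mean difference did not follow, and for most of them the distance from WT was shared with other mutants or was not seen on the other probe. SAKL0A06842g, unnamed, had a mean difference of -2.02 (other probe -1.01). At high iron only 2 of 4 WT arrays gave a usable value, -1.21 and -1.75, and the aft1Δ values were -3.35, -3.69, -3.87 and -3.05. Its sef1Δ values were lower still, -4.31, -4.91 and -5.05, and the 3 usable sef1Δaft1Δ values were -3.00, -2.88 and -2.64. It was thus 4.04-fold lower in aft1Δ than in WT (log2 -2.01 ± 0.25 SE, adjusted p = 9.19e-08) and 2.41-fold higher than in sef1Δ (log2 1.27 ± 0.22 SE, adjusted p = 3.20e-05).

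SAKL0A05786g, unnamed, showed the same order of WT, aft1Δ and sef1Δ at high iron. It measured -3.11, -3.57, -3.32 and -3.49 in WT at high iron, -4.46, -4.09, -5.09 and -4.40 in aft1Δ, and -6.31, -7.10 and -6.55 in sef1Δ. The 3 strains did not overlap, with aft1Δ 1.14 below WT (adjusted p = 0.00128) and 2.14 above sef1Δ (adjusted p = 2.27e-06). Its other probe differed from WT in aft1Δ by -0.29 at high iron and 0.88 at low iron, neither of which passed the test. In sef1Δ that probe differed from WT by -1.93 and -0.24. Its mean difference was thus -1.12 on the main probe and 0.30 on the other. MAL11 (SAKL0A05676g), an alpha-glucoside permease, had a mean difference of -0.999 on one probe and 0.35 on the other. MSO1 (SAKL0A00286g), which acts in secretory vesicle fusion, had -0.88 and 0.95, and SAKL0A08646g had -0.75 and 0.40. For these 3 genes, and for SAKL0A05786g, the probes disagreed in sign, and no direction is given beyond a single probe.

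PYC1 (SAKL0A07128g), pyruvate carboxylase, lay below WT in all mutants, and its probes agreed, with -0.52 and -0.43. Its signals at high iron were 3.40, 3.47, 3.10 and 3.32 in WT and 2.76, 2.74, 2.89 and 3.01 in aft1Δ, without overlap and 1.39-fold apart, which is under the 1.5-fold threshold. They were 2.69, 2.27 and 2.10 in sef1Δ and 1.5550, 1.9442, 1.7221 and 1.5004 in sef1Δaft1Δ, lower than in WT by 1.96-fold (adjusted p = 7.55e-06) and 3.12-fold (adjusted p = 1.24e-10). SAKL0A05698g had a mean difference of -0.57 (other probe -0.25), and GAC1 (SAKL0A08184g), a regulatory subunit of protein phosphatase 1, had -0.52 (other probe -0.03).

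Of all 442 members, 12 were lower in aft1Δ than in WT at 1 or both iron levels, beside 21.4% of all genes, and 5 at both, beside 11.8%. No member kept a call below sef1Δ at both iron levels, since none was lower at high iron.

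In the gene lists drawn from the named members, the share that followed differed widely. No test was made on a list. The median mean difference over all 442 members was 0.84 and 59.7% of them followed. All 12 members of the mitochondrial ribosome and translation followed, with a median of 1.63 (1.05 to 2.04). They ranged from IMG1 (SAKL0A01958g), a large subunit protein, with 2.04, to TUF1 (SAKL0A07656g), the mitochondrial elongation factor Tu, with 1.05. In sef1Δ against WT the same 12 genes had medians of 0.41 at high iron and 0.13 at low iron, and in sef1Δaft1Δ 0.70 and 0.43. Against sef1Δ at high iron their median in aft1Δ was 1.09, and all 12 were called higher there, beside 77.6% of members and 14.6% of all genes.

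Of 11 ribosome biogenesis genes, 10 followed and DBP6 (SAKL0A00924g), an RNA helicase, followed in part with 0.43. Their median was 1.67. NIP7 (SAKL0A04180g), a factor for the large subunit, had 2.23, and LSG1 (SAKL0A05874g), a GTPase that acts late in large subunit assembly, had 2.24. All 11 were called higher against sef1Δ and against sef1Δaft1Δ at both iron levels. Of all members 69.5% and 57.5% were, and of all genes 11.4% and 7.11%. In sef1Δaft1Δ against WT, 6 of the 11 were higher at high iron and 3 at low iron, with medians of 0.59 and 0.32. There 26.7% and 31.4% of all genes were called, higher or lower.

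Of the 6 cytosolic ribosomal protein genes, 2 followed, 3 followed in part and RPL7A (SAKL0A04686g) did not follow, with a median of 0.59 (0.33 to 1.12). Their median signal was 3.27, and the members of the brightest of 5 signal bins, described below, had a similar median of 0.52, with 33.7% following. RPL36B (SAKL0A02772g) had the highest value, 1.12. On the other probes the median of the 6 was 0.92. Against sef1Δaft1Δ at high iron none of the 6 was called higher, beside 9.57% of all genes, and their median there was 0.17.

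Chromatin and transcription complex genes followed closely around the chromosome's own median. Of 15, 13 followed and HPC2 (0.54), of the HIR nucleosome assembly complex, and SNF5 (0.56), of the SWI/SNF complex, followed in part. Their median was 0.93, and their range ran up to 1.77 for CSE2 (SAKL0A02332g), a Mediator subunit. In sef1Δ and sef1Δaft1Δ against WT their medians lay between 0.07 and 0.11, and at most 2 of the 15 were called higher. In these comparisons 18.1% to 31.4% of all genes were called, higher or lower. TUP1 (SAKL0A00660g), a general corepressor, had 0.98, and the remodeler ISW1 (SAKL0A05918g) had 0.82.

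Among the 7 genes of iron, iron-sulfur clusters, heme and metals, 5 followed, with a list median of 0.99. YAH1 (SAKL0A02618g), the mitochondrial ferredoxin of iron-sulfur cluster synthesis, had 1.02 and NBP35 (SAKL0A05324g), a scaffold for cytosolic iron-sulfur clusters, had 0.98. BSD2 (SAKL0A09262g), which acts in the turnover of metal transporters, had 0.99, and MET8 (SAKL0A07348g), an enzyme of siroheme synthesis, had 1.45. HEM15 (SAKL0A08382g), ferrochelatase, followed in part with 0.88. MMT2 (SAKL0A03652g), a mitochondrial metal transporter, did not follow, with 0.19. TYW1 (SAKL0A04290g), an iron-sulfur enzyme of wybutosine synthesis, had the highest value of the list, 2.18.

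All 6 amino acid synthesis genes followed, with a median of 1.26, and they ranged from 0.82 for MET13 (SAKL0A06952g), methylenetetrahydrofolate reductase, to 1.40 for HIS7 (SAKL0A05742g), an enzyme of histidine synthesis. Of 8 cell cycle, spindle and kinetochore genes, 5 followed, including CLN2 (SAKL0A02508g), a G1 cyclin, with 1.23. HCM1 (SAKL0A01496g), a forkhead factor of S phase, and PDS5 (SAKL0A09658g), a cohesin regulator, did not follow, with -0.51 and 0.35. Only ATG12 of the 4 autophagy and vacuole sorting genes followed, with 0.75. Of the 3 maltose and glucoside genes, SAKL0A00154g (YJL216C, an alpha-glucosidase in S. cerevisiae) followed with 1.83. Against sef1Δ, 3 of the 4 autophagy and sorting genes were called higher at each iron level, with ATG3 and ATG12 at both, and all 3 glucoside genes were higher at both. Of all genes 14.6% were higher there at high iron, 17.2% at low iron and 11.4% at both.

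The members that did not follow still had positive medians against sef1Δ. Their median difference was 0.60 at high iron and 0.57 at low iron in aft1Δ against sef1Δ, beside 0.94 and 1.02 for the members that followed. In sef1Δ against WT at high iron they had a median of -0.33 and the members that followed 0.18, and in sef1Δaft1Δ against WT these medians were -0.37 and 0.33. The aft1Δ and WT arrays that chose these classes also enter the comparisons set beside them, so that the medians are a description.

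ATG3 (SAKL0A02420g), the enzyme that carries Atg8 to its lipid in autophagy, is an example. Its signals at high iron were 0.64, 0.71, 0.83 and 0.56 in WT and 0.59, 0.53, 0.55 and 0.47 in aft1Δ. The groups overlapped, with a difference of -0.15 ± 0.09 SE that did not pass the test (adjusted p = 0.151). Against sef1Δ it was 0.82 higher in aft1Δ (adjusted p = 8.69e-08), and its other probe was 0.84 higher in aft1Δ than in WT (adjusted p = 1.48e-08). LEU5 (SAKL0A09306g), a mitochondrial carrier, was 1 of the 3 members whose probes differed most. On the main probe it measured 0.25, 0.25, 0.93 and 0.61 in WT and 0.56, 0.46, 0.10 and 0.63 in aft1Δ, which overlapped, and its mean difference was 0.12 on that probe and 2.10 on the other. The other members of this kind were SAKL0A07920g (0.09 and 2.41) and SAKL0A06292g (0.65 and 2.74).

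Brighter members followed less often. The members were split into 5 bins of 88 or 89 by mean signal over all 31 arrays, which orders probe signals and not transcript numbers, since signal also depends on the probe. From the dimmest to the brightest bin the median mean difference was 1.08, 1.01, 0.90, 0.80 and 0.52. The share that followed was 68.5%, 72.7%, 64.8%, 59.1% and 33.7%. The members that did not follow numbered 17, 14, 19, 24 and 40.

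Genes of the other chromosomes within the same signal limits fell over the bins as well. Their medians were 0.08, 0.00, -0.07, -0.18 and -0.25, and their share called higher at both iron levels went from 18.7% to 2.97%. Relative to them the members stood 0.99, 1.01, 0.97, 0.98 and 0.77 higher, so that the first 4 bins differed by little and the brightest bin lay lower, at 1.71-fold. On the other probes these distances were 1.11, 0.92, 0.99, 1.11 and 0.86. Against sef1Δ the distances were 0.93, 0.98, 0.92, 0.91 and 0.75 at high iron and 0.91, 0.99, 0.93, 0.94 and 0.82 at low iron.

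When each array was scaled by a curve over signal, fitted on the genes of the other chromosomes and added after the data were seen, the members that followed numbered 53, 61, 59, 65 and 52 over the 5 bins, 290 in all. The gap in counts between the brightest bin and the others thus narrowed under that scaling, while the distance of the brightest bin stayed at 0.78.

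**Figure D3:**
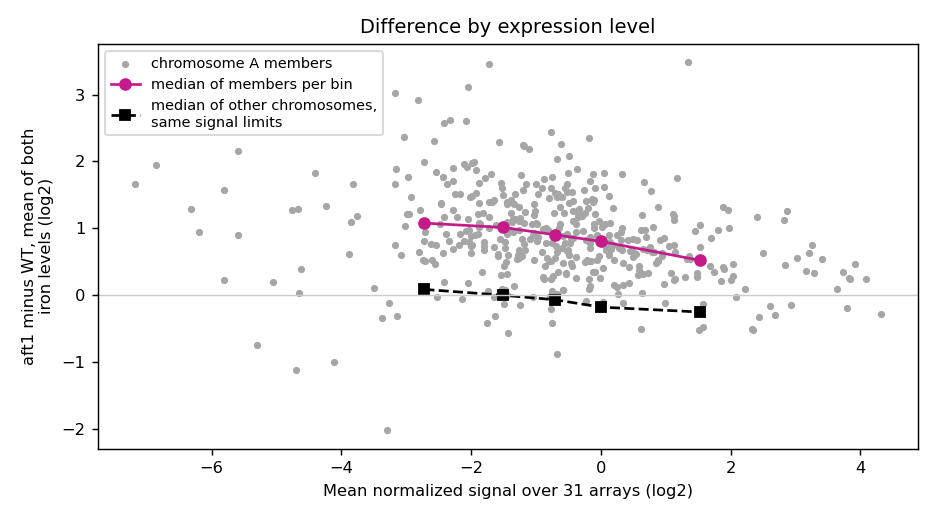
Mean of the 2 aft1Δ minus WT differences (y axis, log2) against mean normalized signal over the 31 arrays (x axis, log2) for each chromosome A member, with the median of each of 5 bins of members and of the other chromosomes' genes within the same signal limits. Both lines fall, from 1.08 to 0.52 in the members and from 0.08 to -0.25 in the other genes.

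The ends of the signal range show this. DDR48 (SAKL0A03718g), a stress-induced protein, was the brightest member. Its signals at high iron were 4.27, 4.15, 4.65 and 4.40 in WT and 4.07, 4.15, 4.02 and 4.46 in aft1Δ, overlapping, and its mean difference was -0.29 (other probe -0.15). SAKL0A07326g, the next brightest and unnamed, measured 4.02, 3.92, 4.34 and 4.09 in WT and 3.96, 4.12, 3.99 and 4.24 in aft1Δ, which also overlapped. At low iron it was 1.41-fold higher in aft1Δ, under the 1.5-fold threshold. RPL1B (SAKL0A03916g), a ribosomal protein and the third brightest, followed in part with 0.47.

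SAKL0A08206g, the dimmest member, measured -8.14, -8.22, -8.34 and -7.96 in WT at high iron and -6.39, -6.57, -6.19 and -6.40 in aft1Δ, without overlap and 3.43-fold apart (adjusted p = 4.18e-04). It was also 1.87 higher in sef1Δaft1Δ than in WT at high iron. SFA1 (SAKL0A00880g), a formaldehyde and alcohol dehydrogenase, was the next dimmest. It was not well above background on any WT or sef1Δ array at low iron. At low iron it measured -8.45, -8.30, -8.53 and -8.65 in WT and -5.49, -6.86, -5.20 and -6.09 in aft1Δ. The groups did not overlap, and because of the background the result is a bound, at least 2.14-fold higher in aft1Δ. Here the dimmest signal still well above background on each WT array stood in for the WT value. Limma's adjusted p of 3.07e-05 belongs to the larger difference from the measured WT values and does not test the bound. The third dimmest, SAKL0A10340g, followed with 1.29.

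The rise ran along the whole chromosome. In 17 windows of consecutive genes in name order, 16 of 25 genes and the last of 42, the median mean difference was above 0 in each. It ranged from 0.56 in the window from SAKL0A03586g to SAKL0A04114g, where 44% of genes followed, to 1.19 in the neighboring window from SAKL0A04136g to SAKL0A04752g, where 80% did. The first window, from SAKL0A00132g, had 1.08 and the last, ending at SAKL0A10670g, had 0.70. In aft1Δ against sef1Δ at low iron the windows lay between 0.69 and 1.08, and there the window from SAKL0A03586g had 0.85. Across 439 pairs of adjacent members the mean differences had a Pearson correlation of 0.11, and 0.11 on the other probe, given as a description.

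**Figure D4:**
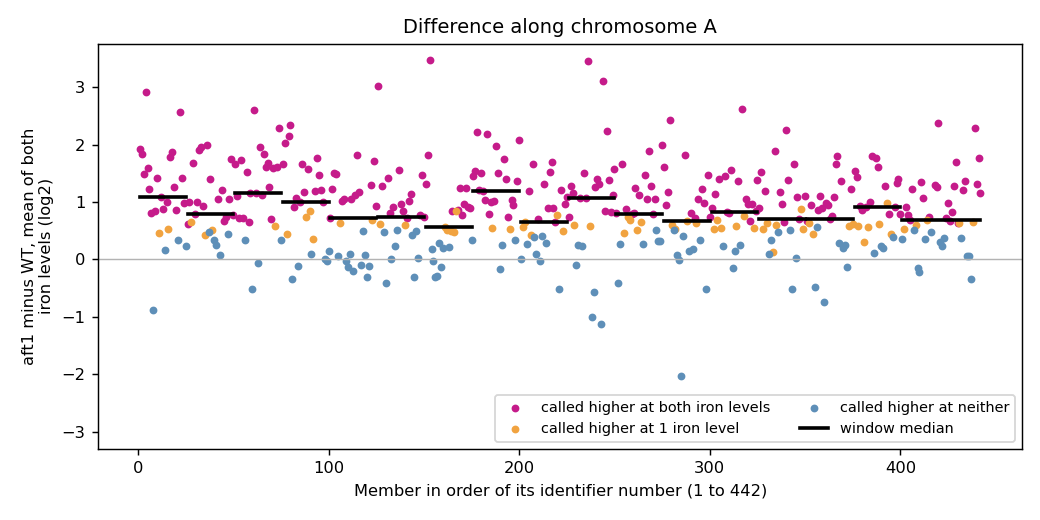
Mean of the 2 aft1Δ minus WT differences (y axis, log2) for each member in the order of the systematic names along chromosome A (x axis, gene number), with the medians of windows of 25 genes. Window medians lie between 0.56 and 1.19, with members that follow and members that do not follow in every stretch.

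Members that did not follow lay scattered, with a few short runs. There were 10 runs of 3 or more neighbors that did not follow. The longest held 7 genes, from MMT2 (SAKL0A03652g) to SAKL0A03784g, with DDR48 among them and a median of -0.03. A run of 5 went from SPG5 (SAKL0A02838g), a proteasome assembly factor of stationary phase, to SEO1 (SAKL0A02926g), a putative permease, with a median of -0.10. Runs of 4 went from SSO1 (SAKL0A03432g), a plasma membrane t-SNARE, to SAKL0A03498g, and from OM14 (SAKL0A06798g), a mitochondrial outer membrane protein, to ROT2 (SAKL0A06864g), glucosidase II.

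The other 6 runs held 3 genes each. One ran from ATG3 (SAKL0A02420g) to VPS27 (SAKL0A02464g), which sorts proteins at the endosome, with a median of 0.02. Further runs were SAKL0A02662g to SAKL0A02706g, SAKL0A06468g to SAKL0A06534g, and SAKL0A08888g to OSH7 (SAKL0A08932g), an oxysterol-binding protein. The last lay from CBT1 (SAKL0A10142g), which acts in mitochondrial RNA processing, to STE6 (SAKL0A10208g), the exporter of a-factor, and from SAKL0A10516g to SAKL0A10560g near the end. The longest run of members that followed held 10 genes, from RSM23 (SAKL0A04136g), a mitochondrial ribosomal protein, to SAKL0A04334g. With windows of 15 genes the medians ranged from 0.28, at SAKL0A03586g to SAKL0A03894g, to 1.60, at SAKL0A01518g to SAKL0A01914g.

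In the other mutants, the members changed in both directions. In sef1Δ against WT 73 members were called at high iron (18.1% of all genes), 36 higher and 37 lower, and 98 at low iron (21.7%), 44 higher and 54 lower. In sef1Δaft1Δ against WT 119 were called at high iron (26.7%), 84 higher and 35 lower, and 118 at low iron (31.4%), 72 higher and 46 lower. These shares of all genes count calls in either direction, so that the split by direction has no share beside it. Of the members tested, 16.55% and 22.17% were called in sef1Δ, and 26.98% and 26.70% in sef1Δaft1Δ, near or below the shares of all genes. At both iron levels 22 members were higher (4.90% of all genes) and 28 lower (7.55%) in sef1Δ, and 39 higher (10.2%) and 21 lower (6.59%) in sef1Δaft1Δ. These 2 comparisons share the WT arrays with each other and with the comparison of aft1Δ.

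Some members were among the highest in more than 1 mutant. SAKL0A03036g was 1.62 and 2.32 higher than WT in sef1Δ at high and low iron and 1.71 and 1.86 higher in sef1Δaft1Δ. SAKL0A07612g was 1.70 higher in sef1Δ at both iron levels, and ESF2 was 1.41 and 1.31 higher. In sef1Δaft1Δ, ENP1 was 1.49 and 1.59 higher and SAKL0A10604g 1.24 and 2.54 higher. Among the falls, MAL11 had log2 differences of -2.50 and -2.79 in sef1Δ on the main probe, with -0.69 and -2.66 on the other probe. In sef1Δaft1Δ PYC1 had -1.64 and -1.48, and SAKL0A02904g had -1.42 and -1.51 on the main probe and -0.24 and -0.42 on the other. MSO1 had -1.65 and -1.71 on the main probe and 0.21 and 0.16 on the other, and so again no direction.

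Few members passed the test for an iron response, and over all genes too the fewest calls were made in aft1Δ and the most in sef1Δaft1Δ. At low against high iron in WT 8 members rose (2.67% of all genes) and 9 fell (1.88%). In sef1Δ 11 rose (3.24%) and 11 fell (2.52%), in aft1Δ 4 rose (1.45%) and 5 fell (1.90%), and in sef1Δaft1Δ 24 rose (7.00%) and 27 fell (7.45%). Counting only calls made on both probes, the numbers were 6 and 7 in WT, 9 and 9 in sef1Δ, 3 and 4 in aft1Δ and 24 and 22 in sef1Δaft1Δ. Shares of all genes called on both probes are not given, so that these numbers only show how many member calls were shared.

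In WT, the 8 members that rose at low iron were SAKL0A00154g, SAKL0A04994g, TDP1, SAKL0A04818g, SPG5, FOX2, SAKL0A03696g and KTR1. SAKL0A00154g, the alpha-glucosidase, rose most. Its signals were -0.43, -0.71, -1.28 and -0.61 at high iron and 0.90, 0.85, 0.34 and 0.69 at low iron in WT, without overlap (2.74-fold, log2 1.45 ± 0.32 SE, adjusted p = 0.00182). In aft1Δ it was high at both iron levels, with 2.01, 1.68, 1.89 and 1.83 at high iron and 1.81, 1.55, 1.86 and 1.76 at low iron. These overlapped, with a difference of -0.11 that did not pass the test, and the response differed between aft1Δ and WT (interaction -1.56 ± 0.45 SE, adjusted p = 0.0272, up to 0.0742 without 1 WT or aft1Δ array). That SE pools the spread of all 8 groups, and the low-iron sef1Δaft1Δ values ran from -1.67 to 0.79. SAKL0A04994g rose by 1.00 in WT, TDP1 (SAKL0A06974g), a DNA repair phosphodiesterase, by 0.91, and SAKL0A04818g by 0.87.

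The 9 members that fell at low iron in WT were SAKL0A10670g, TYW1, GLO1, SAKL0A01980g, ARO4, CTP1, SAKL0A06578g, HIS7 and SAKL0A08624g. SAKL0A10670g, the last member in the order of names and annotated as a YMC1 mitochondrial carrier, fell most. It measured -0.14, 0.27, 0.09 and -0.31 at high iron and -1.44, -0.93, -1.61 and -1.45 at low iron, without overlap (log2 -1.34 ± 0.14 SE, adjusted p = 1.17e-08). In aft1Δ it measured 0.83, 0.80, 0.67 and 0.79 at high iron and 0.20, 0.39, -0.13 and 0.23 at low iron, again without overlap and lower by less, with a difference of -0.60 (adjusted p = 0.00418). The difference between the 2 responses was 0.74 (adjusted p = 0.0148).

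TYW1, whose enzyme binds iron-sulfur clusters, fell in WT and sef1Δ and did not pass the test in aft1Δ. Its WT signals were -1.51, -1.35, -1.22 and -1.13 at high iron and -2.66, -2.14, -2.12 and -2.25 at low iron, without overlap (log2 -0.99 ± 0.14 SE, adjusted p = 8.94e-06). In aft1Δ they were 0.45, 0.36, 0.50 and 0.28 at high iron and 0.33, 0.07, 0.43 and 0.64 at low iron, which overlapped (difference -0.03, adjusted p = 0.936). The 2 responses differed by 0.96 ± 0.20 SE (adjusted p = 0.00207), with 0.96 on the other probe too. In sef1Δ the difference was -1.15 and in sef1Δaft1Δ -0.43, the latter under the fold threshold. GLO1 (SAKL0A02244g), glyoxalase I, fell by 0.94 in WT, and SAKL0A01980g by 0.88. Both amino acid synthesis genes in the group, ARO4 (SAKL0A05720g), the first step of aromatic amino acid synthesis, and HIS7, followed the rise in aft1Δ.

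**Figure D5:**
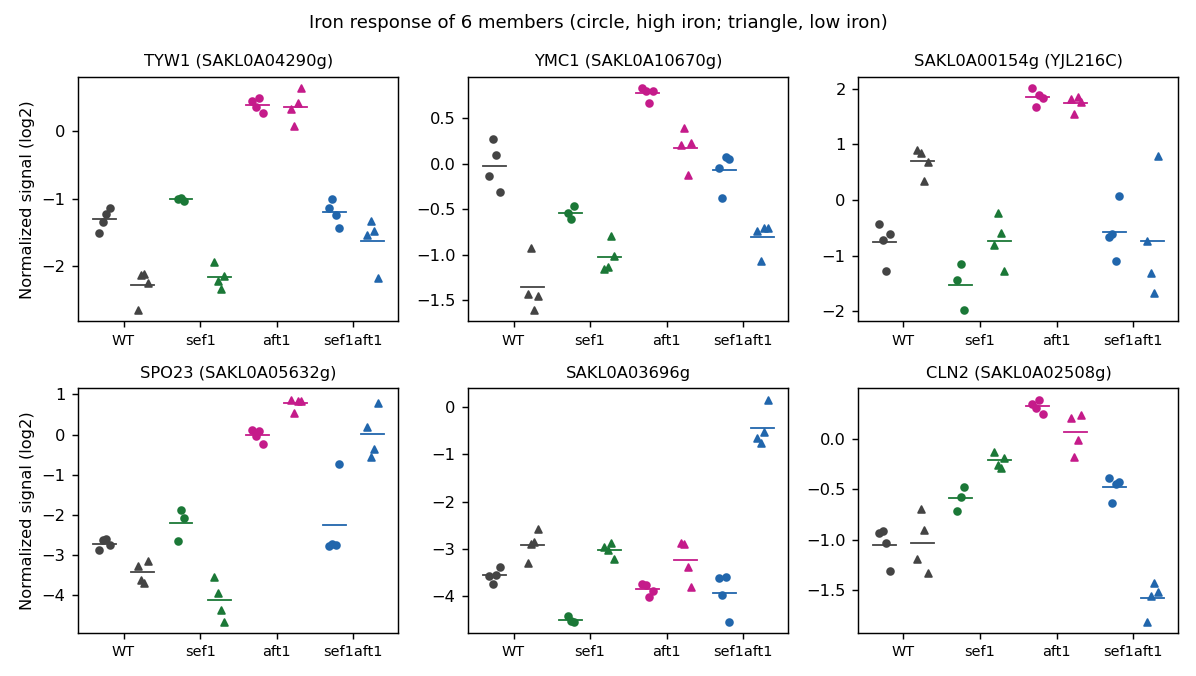
Log2 normalized signal (y axis) on each array for 6 members, by strain (x axis), with circles for high-iron and triangles for low-iron arrays and lines for group means. The panels show TYW1 lower at low iron in WT and at one level in aft1Δ, and SAKL0A03696g higher at low iron in sef1Δaft1Δ on all 4 arrays.

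In aft1Δ the 4 members that rose at low iron were SAKL0A09988g, TOS8, SAKL0A09592g and SAKL0A03696g, and the 5 that fell were SAKL0A02684g, PKP1, SAKL0A04774g, SAKL0A10670g and SAKL0A02706g. SAKL0A09988g, unnamed, measured -1.97, -2.11, -2.12 and -2.13 at high iron and -0.64, -0.86, -1.34 and -1.40 at low iron, without overlap (log2 1.02 ± 0.17 SE, adjusted p = 1.23e-04). It rose in sef1Δ (1.23) and sef1Δaft1Δ (1.34) too, while in WT the difference was 0.35 and did not pass the test. SAKL0A02684g, unnamed, measured 2.32, 2.11, 2.17 and 2.39 at high iron and 0.72, 1.14, 1.19 and 1.39 at low iron in aft1Δ, without overlap (log2 -1.14 ± 0.20 SE, adjusted p = 2.65e-04). It is the member that was lower in aft1Δ than in sef1Δ at low iron, by 2.04-fold. TOS8 (SAKL0A05610g), a homeodomain factor, rose by 0.65, SAKL0A09592g by 0.63, PKP1 (SAKL0A01122g), a pyruvate dehydrogenase kinase, fell by 0.69, and SAKL0A04774g fell by 0.68. The call of SAKL0A09592g was lost without high-iron replicate 4 or low-iron replicate 1 or 2 (adjusted p = 0.0805, 0.0811 and 0.0641), and that of SAKL0A04774g without low-iron replicate 3 (difference -0.58).

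In sef1Δ, the largest rises at low iron were those of SAKL0A03696g (1.48), SAKL0A09988g and YCT1 (SAKL0A00374g), a cysteine transporter (1.1025). SPO23 fell most, by 1.93. Its signals were -2.66, -1.87 and -2.07 at high iron and -3.54, -3.94, -4.38 and -4.66 at low iron, without overlap (adjusted p = 1.22e-04). TYW1 fell by 1.15 and RRT12 (SAKL0A02002g), a spore wall protein, by 0.98.

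The largest rise of any member in any strain was that of SAKL0A03696g in sef1Δaft1Δ. This unnamed gene measured -3.57, -3.73, -3.56 and -3.38 in WT at high iron and -3.30, -2.90, -2.85 and -2.58 at low iron. In sef1Δaft1Δ it measured -3.62, -3.97, -3.60 and -4.53 at high iron and -0.66, -0.77, -0.53 and 0.15 at low iron, 11.1-fold apart without overlap (log2 3.48 ± 0.20 SE, adjusted p = 1.57e-14). It rose at low iron in all 4 strains, by 0.65 in WT, 1.48 in sef1Δ and 0.61 in aft1Δ, and it lies within the run of 7 genes that did not follow.

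SFA1 rose by 3.35 in sef1Δaft1Δ (adjusted p = 2.27e-06). Its 4 low-iron values there were -4.44, -4.25, -4.26 and -1.15, so that the last array stood far above the others, and without it the difference was 2.56 (adjusted p = 1.96e-06). Against WT at low iron it was at least 11.2-fold higher, again a bound because no WT array was well above background, and at least 6.48-fold without that far array. Limma's adjusted p of 6.30e-10 again belongs to the difference from the measured WT values and does not test the bound. SPO23 rose by 2.26, from -2.77, -2.73, -2.75 and -0.73 at high iron to 0.20, -0.55, -0.37 and 0.79 at low iron. The fourth high-iron array stood apart, and without it the difference was 2.77 (adjusted p = 2.08e-10).

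CLN2, the G1 cyclin, measured -0.39, -0.63, -0.44 and -0.43 at high iron and -1.81, -1.55, -1.42 and -1.52 at low iron, without overlap (log2 -1.10 ± 0.12 SE, adjusted p = 9.78e-09). In WT it measured -0.93, -0.91, -1.03 and -1.31 at high iron and -1.19, -0.70, -0.90 and -1.33 at low iron, which overlapped. NRM1 (SAKL0A02376g), a corepressor of G1 to S phase transcription, had -1.40, and SAKL0A05236g had -1.38. NRM1 is not in the cell cycle list. Of the 8 genes of that list CLN2 and DAD3 (SAKL0A06336g), a kinetochore protein (-0.85), fell in this strain, beside 7.45% of all genes, and none passed the test in the other 3 strains.

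The iron responses were also compared between each mutant and WT directly. The interaction was called for 15 members in sef1Δ (3.03% of all genes), 8 with a higher and 7 with a lower response than WT, although only 5 were called on both probes and the count ran from 6 to 24 when 1 array was left out. It was called for 27 in aft1Δ (5.67%), 13 and 14, and for 64 in sef1Δaft1Δ (13.6%), 33 and 31. SPO23 gave opposite responses in the mutants. Its WT signals were -2.87, -2.64, -2.59 and -2.76 at high iron and -3.28, -3.61, -3.69 and -3.14 at low iron, and its aft1Δ signals were 0.12, -0.03, 0.08 and -0.23 at high iron and 0.87, 0.54, 0.85 and 0.85 at low iron. The high and low groups did not overlap in either strain, although the difference within each strain alone (-0.72 and 0.79) did not pass the test. The interaction was 1.51 ± 0.44 SE (adjusted p = 0.0302) in aft1Δ, and adjusted p reached 0.0649 when 1 WT or aft1Δ array was left out. The SE behind these tests pools the spread of all 8 groups. Among them is high-iron sef1Δaft1Δ, where replicate 4 (-0.73) stood apart, and that array was not among those left out.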

How the data were processed

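RNA of WT, sef1Δ, aft1Δ and sef1Δaft1Δ cells was measured on 31 one-color custom Agilent arrays. Per spot, the authors deposited intensity from Agilent Feature Extraction 10.5.1.1: a processed signal, background-subtracted and detrended, the median pixel signal and its local background, with 0 or 1 marks for non-uniform, saturated and clearly detected spots. Log2 values that the authors had scaled in GeneSpring to each array's 75th percentile served as an alternative. Groups and replicate numbers came from the sample labels, and whole numbers in the systematic names gave the order along the chromosome. The members and gene lists were chosen with earlier results of these data known.

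Values were log2 of the processed signal minus log2 of the array's 75th percentile, without control spots and without spots marked as non-uniform outliers. Each gene took the probe with the higher mean signal over all arrays, and the other probe was fitted in parallel. All 31 arrays entered 1 limma model (limma 3.58.1, R 4.3.3) with 8 group means, and p-values were adjusted by Benjamini-Hochberg over all genes. A call needed an adjusted p no higher than 0.05 and 1.5-fold, or 0.585 on the log2 scale. Strain contrasts within an iron level, low against high iron within a strain, and strain by iron interactions were tested. Signal bins, windows and lists were described without a test. Where no array of a group was well above background, the lowest signal well above background on each array, or the probe's own where higher, gave a bound. The steps were tested on simulated data, and tables were prepared with Python 3.11.15. The number of arrays limits the precision, and p-values measure the spread between replicates, pooled over all 8 groups, of 1 clone per strain.

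Named members were, by rule, the 8 highest and 8 lowest in aft1Δ against WT, the 3 brightest and 3 dimmest, the largest iron responses (4 each way in WT and 3 in each mutant), the 3 largest each way of each interaction and of the other mutants against WT, the 3 whose probes differed most, the ends of runs, and members of the lists (cytosolic ribosomal proteins, mitochondrial ribosome, ribosome biogenesis, chromatin, iron and metals, amino acid synthesis, cell cycle, autophagy, maltose). All members that responded to iron in WT and aft1Δ were also named, chosen after their values were seen. Names came from the study's annotation tables, where 249 members had an entry. Of these, 238 had an S. cerevisiae systematic name or symbol, and 200 a symbol.

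Replicate numbers were checked for pairing by correlating the deviations of same-numbered high-iron and low-iron arrays from their group means. The 4 pairs each of WT (0.12 to 0.48), aft1Δ (0.12 to 0.30) and sef1Δaft1Δ (0.25 to 0.54) had positive correlations, and the 3 pairs of sef1Δ ranged from -0.10 to 0.23. An array correlated most with its own number except in WT replicate 2 (0.14, and 0.21 with another number) and sef1Δ replicate 1 (-0.10 and 0.165). Alternatives were quantile, median and other-chromosome scaling, scaling by a lowess curve over signal (span 0.3, added after the data were seen), normexp with an offset of 50 on the median signal, the authors' table, marked spots kept, a dim-probe filter (3 or more arrays of some group well above background), the other probe, the mean of both, the study's best probe, a 2-fold threshold, eBayes with trend and robust options, a model of only the arrays compared, the methods' t-test, a replicate block, other windows and level arrays, and each array left out in turn.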

Additional observations from a re-analysis of the deposited data

Results flagged for a closer look

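Values of 3 members stood far from the other arrays of their group by Dixon's criterion, in 4 of 64 groups of 4 arrays tested, where chance gives about 1 in 20. SPO23 measured 0.54 on aft1Δ low-iron replicate 2, with 0.85 as the nearest value, and -0.73 on sef1Δaft1Δ high-iron replicate 4, with -2.73 as the nearest. SFA1 measured -1.15 on sef1Δaft1Δ low-iron replicate 4, with -4.25 as the nearest. SAKL0A09988g measured -1.97 on aft1Δ high-iron replicate 1, with -2.11 as the nearest.

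The iron response differed from that of WT in these members, by the interaction in limma with Benjamini-Hochberg adjustment. In sef1Δ the response was higher for YCT1 (0.98, adjusted p = 1.24e-03), CTP1 (0.93, adjusted p = 2.47e-03), the mitochondrial citrate carrier, and SAKL0A01980g (0.90, adjusted p = 3.61e-02). It was lower for RGT1 (-0.88, adjusted p = 1.16e-02), a repressor of glucose transporter genes, NGR1 (-0.83, adjusted p = 3.20e-02), an RNA-binding protein, and PKP1 (-0.73, adjusted p = 3.72e-02). The calls of SAKL0A01980g, NGR1 and PKP1 were lost without any 1 of several arrays.

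In aft1Δ the response was higher for SPO23 (1.51, adjusted p = 3.02e-02), GLO1 (1.18, adjusted p = 2.96e-05) and SAKL0A06578g (0.98, adjusted p = 5.62e-04). It was lower for SAKL0A00154g (-1.56, adjusted p = 2.72e-02), FOX2 (-1.15, adjusted p = 2.57e-03), an enzyme of peroxisomal beta-oxidation, and SAKL0A02684g (-1.04, adjusted p = 1.89e-02). In sef1Δaft1Δ it was higher for SFA1 (fitted value 4.15, adjusted p = 4.51e-05), SPO23 (2.98, adjusted p = 9.69e-06) and SAKL0A03696g (2.83, adjusted p = 5.56e-09), and lower for SAKL0A00154g (-1.61, adjusted p = 9.50e-03), NRM1 (-1.36, adjusted p = 1.00e-04) and MIR1 (-1.14, adjusted p = 7.96e-04), the mitochondrial phosphate carrier. SFA1 was not well above background on any WT array at low iron, so that its interaction is a bound of at least 2.68, and at least 1.88 without sef1Δaft1Δ low-iron replicate 4. The interaction of SPO23 was 3.48 without sef1Δaft1Δ high-iron replicate 4.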

How the results depend on the processing

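The distance of chromosome A from the other chromosomes in aft1Δ kept its direction under every scaling, probe and background setting run, and lay between 0.85 and 1.00. Of the counts and medians, 410 values stayed close to the main value and 71 moved. Of the values of named members 1594 kept their status, whether called or not called, 57 lost a call, 3 gained one and 10 called values reversed in sign.

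A 2-fold threshold gave 143 members that followed and 233 that did not. With it 160 were higher and 2 lower than WT at high iron, and 192 and 3 at low iron. Against sef1Δ 142 and 170 were higher, and against sef1Δaft1Δ 103 and 161. In sef1Δ against WT 27 and 25 were called, and in sef1Δaft1Δ 31 and 42. Iron responses numbered 2 in WT, 5 in sef1Δ, 2 in aft1Δ and 19 in sef1Δaft1Δ, and interactions 0, 5 and 16 for sef1Δ, aft1Δ and sef1Δaft1Δ. Shares of all genes are not given for that threshold or for the other settings below. These counts thus show only how the number of members called moved with a setting. With each array scaled to its median, 201 members followed, 176 did not, and 12 and 22 were lower than WT. The median of all genes in aft1Δ against WT at high iron was -0.04 with the main scaling, -0.16 with quantile normalization (238 members followed), -0.24 with median scaling and 0.07 with chromosome A left out of the percentile (290 followed). Leaving chromosome A out gave 7 members lower at low iron, as did the curve over signal. That curve gave a distance of 0.91 for aft1Δ against sef1Δ at low iron, 0.0630 for sef1Δaft1Δ against WT at high iron and 1.02 for the dimmest bin, and levels from the sef1Δ and sef1Δaft1Δ arrays also gave 1.02 for that bin.

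On the other probes 56 members did not follow, and 3 and 5 were lower than WT. There, 128 members were called in sef1Δ and 184 in sef1Δaft1Δ against WT at high iron, 16 for iron in aft1Δ and 8 for the sef1Δ interaction. Genes of the other chromosomes moved too. Their medians in these comparisons with WT at high iron were 0.24 and 0.30, beside -0.00 and 0.05 on the main probes. Shares of all genes on the other probes are not given. The distances were then 0.96 and 1.00 against WT, 0.92 and 0.92 against sef1Δ, 0.93 and 0.95 against sef1Δaft1Δ, 0.0507 for sef1Δ against WT at high iron, and 1.11 and 0.86 for the dimmest and brightest bins. With the mean of both probes 2 and 6 members were lower than WT, and distances were 0.94 and 0.98 against WT, 0.90 against sef1Δ at low iron, 0.90 and 0.95 against sef1Δaft1Δ and 0.0091 for sef1Δ against WT at low iron. Quantile normalization gave 0.93 and 0.98 against WT, 0.93 and 0.95 against sef1Δ, 0.91 and 0.94 against sef1Δaft1Δ and 0.0144 for sef1Δ against WT at low iron. Normexp gave 0.86 and 0.85 against sef1Δ, 0.86 against sef1Δaft1Δ at high iron and 0.0075 for sef1Δ against WT at low iron. Windows of 15 genes ranged from 0.28 to 1.60 and of 50 genes from 0.70 to 1.14. After Benjamini-Hochberg adjustment, the methods' t-test called 14 members for iron in sef1Δ.

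Signs reversed with the probe. On the other probe MSO1 had 0.21 and 0.16 in sef1Δaft1Δ against WT and 0.89 and 1.01 in aft1Δ, MAL11 1.18 and SAKL0A08646g 0.89 in aft1Δ at high iron, and SAKL0A05786g 0.88 at low iron. With the mean of both probes MAL11 had 0.14, SAKL0A08646g 0.0298 and, at low iron, MSO1 0.0803. Which probe is right was not tested.

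With the replicate block the sef1Δ interaction called 23 members in place of 15, and no other count moved by over 1.5 times. Leaving out 1 array at a time, members that followed numbered 260 to 266, those that did not 109 to 118, and sef1Δ interactions 6 to 24. The lowest count came without sef1Δ high-iron replicate 1 or 2 or low-iron replicate 3, the highest without sef1Δ low-iron replicate 1, and 7 or 8 members were called without WT high-iron replicate 3, WT low-iron replicate 1 or sef1Δ low-iron replicate 4. The distance of aft1Δ from sef1Δ at low iron ranged from 0.89 to 0.91. Interactions were not run with t-tests. The sef1Δ interactions of SAKL0A01980g, NGR1 and PKP1 lost their calls without any 1 of WT high-iron replicate 3, WT low-iron replicate 1, sef1Δ high-iron replicate 1 or 2 or sef1Δ low-iron replicate 3 or 4, and some without 1 other array, with adjusted p up to 0.0954, 0.0805 and 0.15. Of the aft1Δ interactions, SPO23 lost its call without WT high-iron replicate 3, WT low-iron replicate 2 or 3, aft1Δ high-iron replicate 4 or aft1Δ low-iron replicate 1 (adjusted p up to 0.0649), SAKL0A00154g without WT high-iron replicate 3, WT low-iron replicate 1 or 2, aft1Δ high-iron replicate 1 or aft1Δ low-iron replicate 2 (up to 0.0742), and SAKL0A02684g without aft1Δ low-iron replicate 1 (0.0514). Arrays of strains outside a comparison also enter its SE and were not left out for it. The causes of these changes were not tested.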
